A study of Mus musculus with 38 samples.

Results

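At 72 h of retinoic acid (RA) exposure, cells that carried the receptor PDGFRA on their surface were compared with cells that did not, by bulk RNA-seq of sorted populations. The comparison holds 4 of the 38 samples of the study. These are 1 library of PDGFRA+ cells, sorted as PDGFRA+/CD24-, and 3 libraries of PDGFRA- cells, sorted by their CD24 signal into the terciles T1, T2 and T3 which form the other side. All 4 came from E14 cells, a mouse embryonic stem cell (mESC) line, which were grown in 2i medium with LIF and then differentiated with RA. Gates for positive and negative cells were set against undifferentiated mESCs. The labels give RA and 72 h for the sorted libraries and state a dose, 0.25 µM, for the time course. The terciles are different CD24 gates rather than repeats of the same population, and nothing in the labels says that they came from separate cultures. Every p-value of the 72 h comparison thus sets a difference against the spread between these libraries, the CD24 gradient included. With 1 library against 3, a permutation cannot give a p below 0.25. The test across all genes therefore assumes that the lone PDGFRA+ library varies like the PDGFRA- libraries.

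PDGFRA is the receptor for platelet-derived growth factors and an early surface marker of the primitive endoderm, the epithelium that forms beside the epiblast in the blastocyst and gives rise to the visceral and parietal yolk sac endoderm. Extraembryonic endoderm (XEN) cells are its counterpart in culture. They are known for the transcription factors GATA6, GATA4 and SOX17 and for secreting large amounts of basement membrane, in particular type IV collagen and laminin. CD24 is a small surface glycoprotein that marks neural and other ectodermal progenitors. RA is a vitamin A derivative that binds nuclear receptors and directly switches on Hox genes and enzymes of its own breakdown.

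The values as deposited were UMI counts: a UMI is a random tag added to a transcript's 3′ end copy, so that PCR copies of the same molecule count once. The libraries held 1287164 (T1), 1133574 (T2), 1302895 (T3) and 1360541 (PDGFRA+) UMIs, so that 1 UMI was worth 0.735 counts per 1000000 UMIs (CPM) in the PDGFRA+ library. At least 1 UMI was found for 13419, 12958 and 12973 genes in T1, T2 and T3 and for 11949 genes in PDGFRA+. The terciles differed from each other by more than sampling noise (chi-square over degrees of freedom between 2.38 and 10.1), and none was a copy of another. On log2(CPM + 1), Pearson correlations across genes, which are no independent replicates, were between 0.925 and 0.961 among the terciles and between 0.844 and 0.868 of a tercile with PDGFRA+. In bulk samples, fewer cells of a type and less RNA per cell cannot be told apart.

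The mRNAs of both sorted proteins followed their gates. Pdgfra (chr5:75152292-75198215, GRCm38, a protein-coding gene) was at 15.5, 6.18 and 2.3 CPM in T1, T2 and T3 and at 116 CPM in PDGFRA+ (log2 fold change 3.94 ± 0.56 (SE), adjusted p = 0.0113, edgeR's quasi-likelihood test with Benjamini-Hochberg adjustment). Cd24a (chr10:43578284-43584265), the mouse gene for CD24, was at 49.7, 122 and 256 CPM in T1, T2 and T3 and at 14.7 CPM in PDGFRA+ (log2 fold change -3.15 ± 0.95 (SE), adjusted p = 0.0935). PDGFRA+ was thus above every PDGFRA- library for Pdgfra and below every PDGFRA- library for Cd24a, although Cd24a did not pass the threshold of 0.05. Its level also differed between the terciles themselves. Both proteins defined the gates, so these values check the labels and are no finding.

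Among 8131 genes that passed the filter on low counts, 691 differed between PDGFRA+ and PDGFRA- cells, or 8.5% (edgeR, adjusted p under 0.05). Of these, 490 genes (6.03% of those tested) were higher and 201 (2.47%) lower in PDGFRA+ cells. The median size of the difference was 1.61 on the log2 scale for genes that were higher, and 432 of them differed at least 2-fold and 80 at least 8-fold. For genes that were lower the median was 2.53, with 197 genes at least 2-fold and 85 at least 8-fold apart. For all 691 the PDGFRA+ library lay outside the range of the 3 PDGFRA- libraries. That alone is common: PDGFRA+ was above all 3 for 2303 genes (28.3%) and below all 3 for 3552 (43.7%), together 5855 genes (72.0%). These shares, with the 6.03% and 2.47% called, are the background for the counts in gene lists below. With library totals in place of TMM factors, which moved the median log2 fold change of all genes by -0.11, 418 genes were higher and 272 lower, so that the share of higher genes went from 70.9% to 60.6%. The calls depended on single terciles. Without T2, edgeR called 0 genes (1500 at an unadjusted p under 0.05), with T1 and T3, the least correlated terciles, remaining, and this ends every call named below. Without T1 it called 2066 genes and without T3 1139, among them all 691 and 684 of the 691. No called gene changed its direction in any of these fits.

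**Figure D1:**
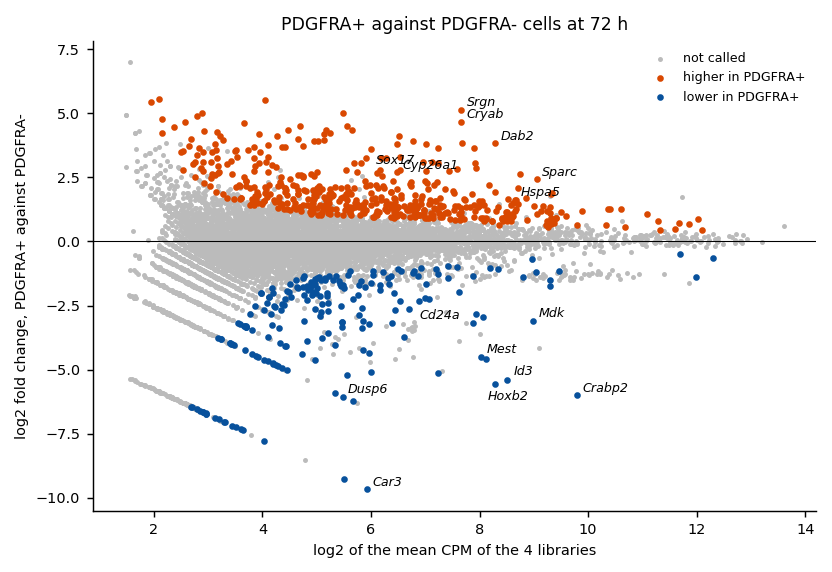
Each point is 1 of the 8131 genes tested at 72 h, plotted by the log2 of its mean CPM over the 4 libraries (x axis) and the fitted log2 fold change of PDGFRA+ against PDGFRA- cells (y axis). The 490 genes higher in PDGFRA+ (orange) include Srgn, Cryab and Sox17. Genes with 0 UMIs in PDGFRA+ such as Car3 lie at the lower edge, and their fitted fold changes depend on a prior count.

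XEN markers were higher in PDGFRA+ cells without exception in this list: 11 of 11 passed the test, with a median log2 fold change of 3.66 against -0.08 over all genes tested. Their summed level was 797, 473 and 356 CPM in T1, T2 and T3 and 4381 CPM in PDGFRA+. The terciles were ordered in this sum, T1 being the nearest to PDGFRA+. The list includes Pdgfra, whose protein defined the gate. Of the markers given for this population, Srgn (chr10:62493833-62527451), which encodes the proteoglycan core of secretory granules, was at 42.7, 18.5 and 6.14 CPM in T1, T2 and T3 and at 745 CPM in PDGFRA+ (log2 fold change 5.14 ± 0.63 (SE), adjusted p = 0.00743). Cryab (chr9:50751325-50756636), which encodes a small heat shock chaperone, was at 67.6, 13.2 and 9.21 CPM in T1, T2 and T3 and at 720.3 CPM in PDGFRA+ (log2 fold change 4.66 ± 0.78 (SE), adjusted p = 0.0176). In both, the groups did not overlap and T1 was the highest tercile. The remaining given marker went the other way: Id3 (chr4:136143497-136145755), an inhibitor of basic helix-loop-helix transcription factors, was at 256, 493 and 689 CPM in T1, T2 and T3 and at 10.3 CPM in PDGFRA+ (log2 fold change -5.41 ± 0.69 (SE), adjusted p = 0.00827). Id3 therefore marked the PDGFRA- side.

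**Figure D2:**
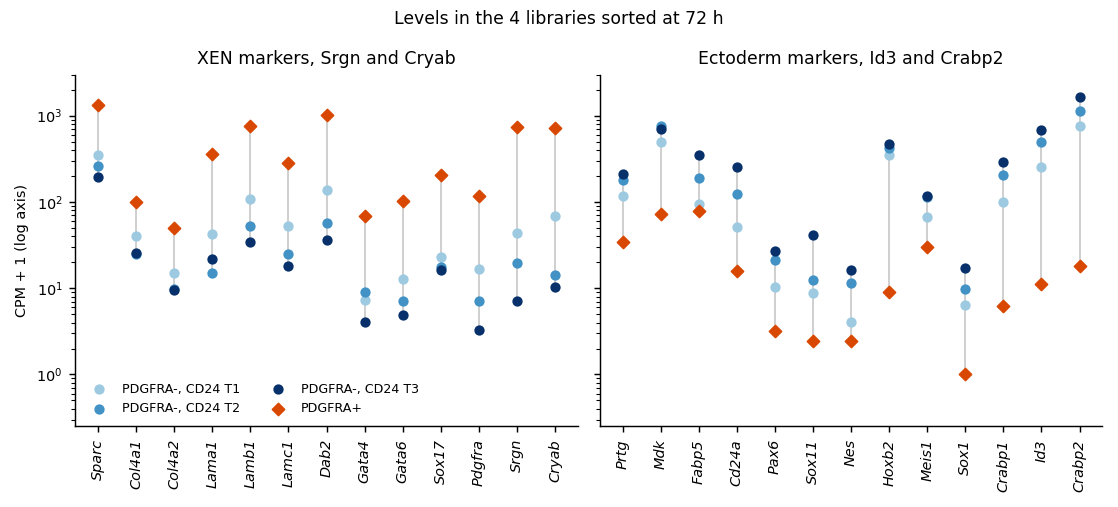
Levels of 11 XEN markers with Srgn and Cryab (left) and of 11 ectoderm markers with Id3 and Crabp2 (right) in each of the 4 libraries, as CPM + 1 on a log axis, with a grey line from the lowest to the highest library. PDGFRA+ (orange diamonds) is above the 3 PDGFRA- terciles (blue circles) for every gene on the left and below them for every gene on the right.

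Among 13 endoderm transcription factors, 11 had enough counts to be tested, 6 were higher in PDGFRA+ cells and 0 were lower. Sox17 (chr1:4490931-4497354) was at 21.8, 16.8 and 15.4 CPM in T1, T2 and T3 and at 202 CPM in PDGFRA+ (log2 fold change 3.59 ± 0.25 (SE), adjusted p = 0.00397). Gata4 was at 6.22, 7.94 and 3.07 against 68.4 CPM and Gata6 at 11.7, 6.18 and 3.84 against 102 CPM in the same order of libraries, which is kept for all values given below in this short form. These 3 factors form the core of the primitive endoderm programme. Sox7, a close relative of Sox17, was at 3.11, 0.882 and 0.768 against 30.9 CPM, Foxq1 at 3.88, 0 and 0 against 26.5 CPM, and the co-regulator Cited1 at 46.6, 27.3 and 23 against 422 CPM (adjusted p = 0.00956, 0.0406 and 0.00466). The visceral endoderm regulator Foxa2 (10.9, 7.94 and 10.7 against 22.1 CPM) lay above all terciles without passing the test, as did Tbx3 and Sall4. Foxa1 was the exception in direction, with 1 UMI in PDGFRA+ and 31 over the terciles, an 11.3-fold (95% counting interval 1.89 to 462) difference by counts that did not pass the test (adjusted p = 0.122). Hnf4a and Hhex, with at most 6 UMIs in any of the 4 libraries, were below the filter.

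Most of the basement membrane genes tested were higher in PDGFRA+ cells. Of 17, 12 were tested, 7 were higher, 1 was lower and 4 were not called, with a median log2 fold change of 2.24. The laminin-111 chains were all higher: Lama1 was at 42, 14.1 and 20.7 CPM in T1, T2 and T3 and at 363 CPM in PDGFRA+ (log2 fold change 3.91 ± 0.44 (SE), adjusted p = 0.00605). Lamb1 was at 107, 51.2 and 33 against 757 CPM and Lamc1 at 51.3, 23.8 and 16.9 against 281 CPM. For all 3 chains PDGFRA+ lay above every tercile, and T1 was the highest of these. The type IV collagen chains differed less, Col4a1 from 39.6, 23.8 and 24.6 to 98.5 CPM (log2 fold change 1.84 ± 0.32 (SE), adjusted p = 0.0195) and Col4a2 from 14, 8.82 and 8.44 to 49.2 CPM. These genes are transcribed in opposite directions from start sites 21 bases apart. The linker Nid1 went from 3.88, 2.65 and 4.61 to 35.3 CPM and the collagen-binding glycoprotein Sparc from 349.6, 258 and 193 to 1329 CPM. The gene that fell was Col18a1, a collagen of vascular and epithelial basement membranes, with 57.5, 86.5 and 58.3 CPM in the terciles and 1 UMI in PDGFRA+, a 90.6-fold (95% counting interval 16.1 to 3593) difference. Nid2, Agrn and Fn1, the fibronectin gene, were at 31.1, 33.5 and 18.4 against 33.1 CPM, 17.1, 10.6 and 7.68 against 10.3 CPM and 17.9, 23.8 and 15.4 against 7.35 CPM and did not pass the test, nor did Tinagl1. Lama5, Lamb2, Hspg2, Smoc2 and Fbln1 were below the filter.

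Most of the tested enzymes and chaperones that make secreted collagen were higher too. Of 15 collagen folding genes, 12 were tested, 9 were higher and 0 lower (median log2 fold change 2.07). The prolyl hydroxylases P4ha1 and P4ha2 were at 30.3, 15.9 and 14.6 against 179 CPM and 55.2, 41.5 and 39.1 against 362 CPM, and their shared subunit P4hb at 219, 180.0 and 169.6 against 672 CPM. The lysyl hydroxylases Plod2 and Plod3 were at 31.9, 24.7 and 21.5 against 233 CPM and 14.8, 14.1 and 7.68 against 48.5 CPM, while Plod1, at 5.44, 7.94 and 7.68 against 8.82 CPM, did not pass. Serpinh1, the collagen-specific chaperone HSP47, was at 95.6, 77.6 and 63.7 CPM in T1, T2 and T3 and at 527 CPM in PDGFRA+ (log2 fold change 2.84 ± 0.24 (SE), adjusted p = 0.00466). The prolyl 3-hydroxylase gene Lepre1 was higher (17.9, 12.4 and 8.44 against 55.9 CPM), whereas its partner Crtap (21.8, 18.5 and 23.8 against 42.6 CPM, adjusted p = 0.0542) and the related Leprel2 (187, 97.9 and 104 against 92.6 CPM, adjusted p = 0.59) were not called. Among the 12 tested genes Leprel2 was the one with PDGFRA+ below all terciles. Of the 3 members below the filter, Fkbp10 was lowest in PDGFRA+ as well, with 1 UMI there and at most 10 in a tercile. P4ha3 had 1, 2 and 1 UMIs in T1, T2 and T3 and 1 in PDGFRA+, too few to give it a direction. The peptidyl-prolyl isomerase Ppib and the collagen galactosyltransferase Glt25d1 were higher.

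Genes of the endoplasmic reticulum (ER) that fold and export secreted proteins were higher in PDGFRA+ cells. Every one of the 19 genes in the list of ER secretory machinery was tested and above all 3 terciles in PDGFRA+, and 17 passed the test (median log2 fold change 1.61, from 0.77 to 3.26). Their summed level was 4225, 3912 and 3798 CPM in T1, T2 and T3 and 10369 CPM in PDGFRA+. Of all genes tested, 28.3% lay above all terciles and 6.03% were called higher. Hspa5 (chr2:34771970-34777547), which encodes the ER chaperone BiP, was at 289.8, 253 and 292 CPM in T1, T2 and T3 and at 790.1 CPM in PDGFRA+ (log2 fold change 1.61 ± 0.16 (SE), adjusted p = 0.00479). Hsp90b1 (GRP94) was at 493, 358 and 361 against 1380.3 CPM, and the lectin chaperones Calr and Canx at 321, 195 and 206 against 942 CPM and 323, 288 and 336 against 504 CPM. Canx thus differed much less than its partner Calr. The disulfide isomerases Pdia4 and Pdia6 were at 117, 96.2 and 75.2 against 367 CPM and 470.0, 504 and 447 against 1014 CPM, and Pdia3, at 177, 165 and 140.5 against 255 CPM, missed the threshold (adjusted p = 0.0728). Among channel and signal peptidase subunits, Sec61a1 was at 157, 140.3 and 140.5 against 412 CPM and Sec11c at 38.8, 15 and 16.1 against 145 CPM. Ssr1 was not called (adjusted p = 0.0529). The largest differences in the list were those of the retrieval receptor Kdelr3 (31.1, 24.7 and 17.7 against 218 CPM) and the secreted ER stress protein Manf (87.8, 75 and 62.9 against 465 CPM). With library totals 15 of the 19 were called higher, and with DESeq2 also 15.

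**Figure D3:**
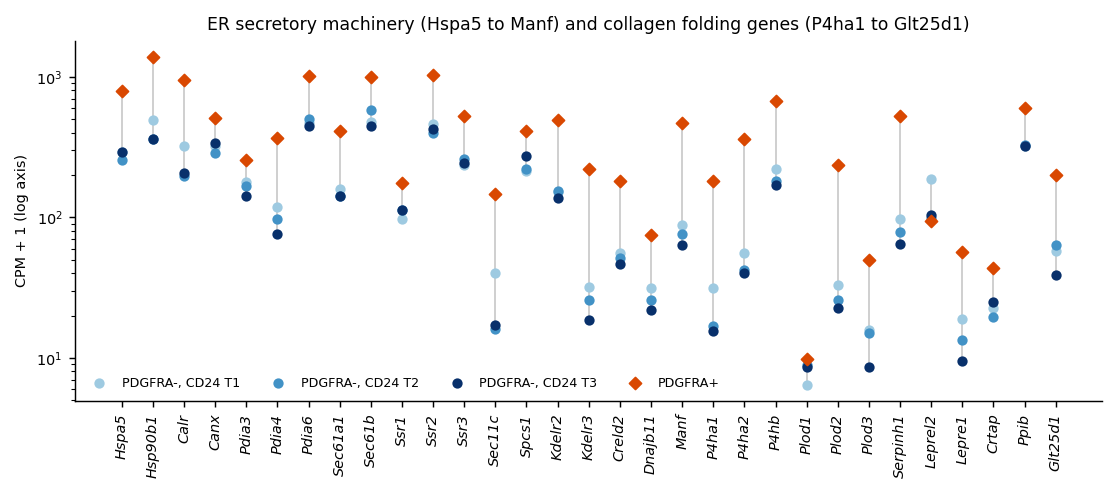
Levels of 19 genes of the ER secretory machinery (Hspa5 to Manf) and 12 collagen folding genes (P4ha1 to Glt25d1) in the 4 libraries, as CPM + 1 on a log axis. The PDGFRA+ library (orange diamonds) is the highest of the 4 for every gene plotted other than Leprel2.

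Several of these ER genes are known to share a promoter element, the ER stress response element, through which ATF6 and NF-Y act, and its sequence is shown here because 17 of the 19 genes were called higher. The letters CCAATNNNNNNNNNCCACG were searched on both strands of the 250 bases before each RefSeq start site (GRCm38.p6), a search chosen after the values were seen. They were found in 37 of 32851 windows of all genes (0.113%), in 12 of 7716 windows of genes tested (0.156%), in 7 of 495 windows of genes called higher (1.41%) and in 0 of 188 of genes called lower. Those of the called genes are Calr, Canx, Creld2, Dnajc3, Hsp90b1, Hspa5 and Pdia6. Of the 14 ER machinery genes with a window, 6 held it. The element stands 65 bases before the start of Hspa5, 212 and 107 before that of Hsp90b1 on opposite strands, 145 before that of Canx and 126 before that of Creld2, counted from its first base. In the sequences below, written 5′ to 3′ along the strand of the gene, capitals mark the matching CCAAT and CCACG letters, or ATTGG and CGTGG where the match is on the other strand. Bases inside the gene as GENCODE M21 annotates it are left out, and since that annotation starts Hspa5 upstream of its RefSeq start, only the match and 5 bases on either side are shown for it.
Hspa5 (chr2:34772020-34772048, plus strand): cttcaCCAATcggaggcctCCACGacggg
Hsp90b1 (chr10:86705510-86705694, minus strand): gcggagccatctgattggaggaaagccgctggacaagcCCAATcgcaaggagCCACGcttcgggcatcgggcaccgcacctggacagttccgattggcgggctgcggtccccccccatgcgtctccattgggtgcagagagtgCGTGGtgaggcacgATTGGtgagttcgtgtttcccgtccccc
Canx (chr11:50325674-50325923, minus strand): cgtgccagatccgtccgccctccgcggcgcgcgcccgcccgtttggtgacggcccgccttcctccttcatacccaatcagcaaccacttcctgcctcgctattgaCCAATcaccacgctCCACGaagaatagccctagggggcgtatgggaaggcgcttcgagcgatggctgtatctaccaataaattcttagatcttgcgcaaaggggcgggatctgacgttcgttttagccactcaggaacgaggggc
Creld2 (chr15:88819396-88819645, plus strand): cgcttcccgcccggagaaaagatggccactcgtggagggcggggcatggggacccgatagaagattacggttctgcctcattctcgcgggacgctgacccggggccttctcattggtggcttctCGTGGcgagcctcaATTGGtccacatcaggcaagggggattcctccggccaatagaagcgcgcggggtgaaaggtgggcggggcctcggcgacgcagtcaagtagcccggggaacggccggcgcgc
Hsp90b1, with 2 matches, went from 493, 358 and 361 to 1380.3 CPM, and Canx and Creld2, with 1 each, from 323, 288 and 336 to 504 and from 55.2, 50.3 and 45.3 to 179 CPM. A match describes the letters of the window and does not show that a factor is bound there.

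Several genes of uptake and digestion, which the yolk sac uses to feed the embryo, were higher in PDGFRA+ cells. Of 18 genes of yolk sac endocytosis and carriers, 12 were tested, 7 were higher and 0 lower (median 1.75). The adaptor Dab2 was at 138, 55.6 and 35.3 CPM in T1, T2 and T3 and at 1014 CPM in PDGFRA+ (log2 fold change 3.82 ± 0.57 (SE), adjusted p = 0.0127), and its cargo receptors Cubn and Lrp2 were at 15.5, 3.53 and 2.3 against 129 CPM and 10.9, 6.18 and 10.7 against 38.2 CPM. The fatty acid carrier Fabp3 was at 76.1, 43.2 and 29.9 against 669.6 CPM. None of the 4 tested serum carriers passed the test. Ttr (30.3, 58.2 and 48.4 against 16.9 CPM) and Apoe (47.4, 39.7 and 13.8 against 7.35 CPM) were below all terciles, Apom (16.3, 7.06 and 1.54 against 19.1 CPM) was above them, and Rbp4 (0.777, 12.4 and 0.768 against 9.56 CPM) lay within their range. Afp, Apoa1, Apob, Amn, Trf and Hba-x had too few counts, Afp with 3 UMIs in PDGFRA+ and at most 10 in a tercile. Of 16 lysosome and cathepsin genes, all tested, 7 were higher and 0 lower (median 0.86): Ctsl was at 371, 424 and 338 against 909.9 CPM, Ctsb at 177, 162 and 141 against 310.2 CPM, the legumain gene Lgmn at 6.99, 8.82 and 6.91 against 46.3 CPM and the tetraspanin Cd63 at 459.9, 434 and 304 against 1341 CPM. Npc2, Psap, Ctsd and 6 further members were not called.

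Of 14 parietal endoderm genes, 11 were tested, 7 were higher and 0 lower (median 1.97). Besides Srgn and Cryab these were Pth1r, the receptor for parathyroid hormone-related protein (11.7, 8.82 and 6.91 CPM in T1, T2 and T3 and at 173 CPM in PDGFRA+, log2 fold change 4.33 ± 0.28 (SE), adjusted p = 0.00308), the activin antagonist Fst (3.88, 3.53 and 4.61 against 65.4 CPM), Timp3 (6.99, 4.41 and 5.37 against 41.2 CPM), Krt8 (44.3, 26.5 and 15.4 against 105 CPM) and Plat, tissue plasminogen activator (42, 39.7 and 35.3 against 78.6 CPM). Vimentin, at 139, 132 and 126 against 148 CPM, and Krt18, at 118, 103 and 53 against 101 CPM, were not called, and the classical parietal marker Thbd was below the filter with 4 UMIs in PDGFRA+ and at most 1 in a tercile. In the list of cell adhesion and epithelial-mesenchymal transition, 1 of 11 genes tested was higher, the claudin Cldn6 (67.6, 35.3 and 27.6 against 208 CPM), and 0 were lower. E-cadherin (Cdh1) was at 16.3, 15 and 12.3 against 11.8 CPM and N-cadherin (Cdh2) at 9.32, 23.8 and 53.7 against 0.735 CPM, the latter with a 39.8-fold (95% counting interval 6.999 to 1587) difference by counts but an adjusted p of 0.0962. Among PDGF ligands and receptors only Pdgfra and Pdgfa, at 8.55, 7.06 and 1.54 against 7.35 CPM and not called, had enough counts to be tested.

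The genes furthest above the nearest tercile, by the rule for named genes, began with Mpzl2, an adhesion protein of epithelial junctions, at 2.33, 1.76 and 0 CPM in T1, T2 and T3 and at 61.7 CPM in PDGFRA+ (log2 fold change 5.53 ± 0.56 (SE), adjusted p = 0.00567). It was followed by Fam134b, a receptor for the digestion of ER membrane (7.77, 4.41 and 3.84 against 163 CPM), Srgn and the aquaporin Aqp8 (2.33, 1.76 and 1.54 against 44.8 CPM). Pth1r, Fst, Cryab, Sox17 and Cited1 were also among the 15. The others were Tmem144, the heparan sulfate sulfotransferase Hs3st1 (8.55, 2.65 and 1.54 against 91.1 CPM), the pantetheinase Vnn1 (4.66, 2.65 and 1.54 against 52.2 CPM), Glipr1 (12.4, 5.29 and 1.54 against 125 CPM), the myosin motor Myo5b (0, 0.882 and 0 against 16.2 CPM) and Gpx2-ps1, a pseudogene whose reads cannot be told from those of its parent gene with certainty. In all 15 genes both XEN-like libraries sorted at 96 h also lay above both ectoderm-like ones. Fam134b, for example, was at 172 and 188 CPM there against 5.002 and 42 CPM. The same separation held for 479 of all 490 genes called higher, so it is not particular to these 15.

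Ectoderm markers were below all 3 terciles without exception among the 11 tested of 12, and 5 of them passed the test, while 0 were higher. The median log2 fold change was -3.09, or -2.91 with Sox1, which had 0 UMIs in PDGFRA+, put at its bound. The 11 include Cd24a, whose protein defined the gates. Of all genes tested, 43.7% lay below all terciles. Hoxb2 (chr11:96350525-96354012), a hindbrain homeobox gene, was at 346, 424 and 470.5 CPM in T1, T2 and T3 and at 8.09 CPM in PDGFRA+ (log2 fold change -5.55 ± 0.32 (SE), adjusted p = 0.00308). The growth factor Mdk (midkine) was at 499, 762 and 705 against 71.3 CPM, Prtg at 117, 180.0 and 210.3 against 33.1 CPM, the homeobox gene Meis1 at 66.8, 112 and 115 against 28.7 CPM and Crabp1 at 97.9, 206 and 291 against 5.15 CPM. The 6 members that did not pass, Cd24a, Fabp5, Pax6, Sox11, Nes and Sox1, were all ordered T1 under T2 under T3: Sox11 was at 7.77, 11.5 and 39.9 against 1.47 CPM and Fabp5 at 93.2, 189.7 and 347 against 77.2 CPM. All 10 tested of 18 neural patterning genes were likewise below the terciles, 3 of them called. Zic2 was at 35.7, 52.9 and 76 CPM in T1, T2 and T3 and at 8.82 CPM in PDGFRA+ (log2 fold change -2.51 ± 0.52 (SE), adjusted p = 0.0344). Hoxb1 had 1 UMI in PDGFRA+, a 22.7-fold (95% counting interval 3.92 to 909) difference. Hoxb4 had 0 and was 3.9-fold lower at a floor of 3 UMIs (95% counting interval from 2.99 upward). The median of this list was -4.63 in the fit and -2.32 with its 4 genes at 0 UMIs in PDGFRA+ put at their bounds.

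**Figure D4:**
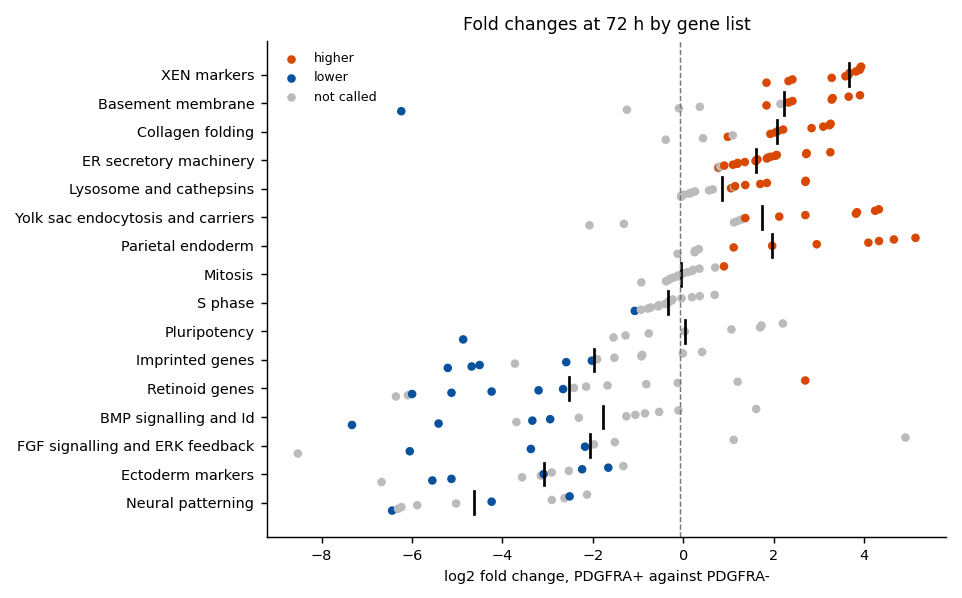
Fitted log2 fold changes at 72 h (x axis) of the tested genes of 16 lists, 1 point per gene, coloured by call, with a black bar at the median of each list and a dashed line at -0.08, the median of all genes tested. The medians of XEN, basement membrane and secretion genes lie to the right of that line and those of ectoderm, FGF, BMP and retinoid genes to the left.

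Among retinoid genes, carriers of RA were lower in PDGFRA+ cells and the enzyme that breaks it down was higher. Of 17, 14 were tested, 5 were lower and 1 higher (median -2.54, or -2.01 with the 2 genes at 0 UMIs in PDGFRA+ at their bounds). Below all terciles lay 11 of the 14, against 43.7% of all genes tested. The lower genes include carriers and enzymes that hold or reduce retinoids, and a Hox gene: Crabp2, which brings RA to its receptor, was at 759, 1128 and 1641 CPM in T1, T2 and T3 and at 16.9 CPM in PDGFRA+ (log2 fold change -6.00 ± 0.54 (SE), adjusted p = 0.00466). The retinal reductase Dhrs3 was at 126, 124 and 81.4 against 16.2 CPM, and Crabp1 and Hoxb1 were lower as well. The higher gene was Cyp26a1 (chr19:37697798-37701536), the enzyme that degrades RA, at 42.7, 43.2 and 32.2 CPM in T1, T2 and T3 and at 238 CPM in PDGFRA+ (log2 fold change 2.70 ± 0.24 (SE), adjusted p = 0.00466). Receptor genes did not pass: Rarb was at 24.1, 21.2 and 17.7 against 11 CPM, Rxra at 14, 7.94 and 4.61 against 1.47 CPM and Rara at 5.44, 7.94 and 6.91 against 0 CPM. Stra8, an RA target, was at 279, 177 and 99 against 39 CPM (adjusted p = 0.0814), so that its terciles were ordered against those of Crabp2.

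Cyp26a1 is known for an RA response element close to its start, and this element is shown because the gene was the member of its list that was called higher. A direct repeat of AGTTCA spaced by 5 bases (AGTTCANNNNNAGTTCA, both strands, the same windows, also chosen after the values were seen) was found in 7 of 32851 windows (0.0213%), that of Cyp26a1 among them. It starts 32 bases before the RefSeq start and lies on the other strand, so that it reads TGAACT along the strand of the gene. The related GGTTCANNNNNAGTTCA, found in 2 of 32851 windows (0.00609%), stands 53 bases before a start of Rarb, which was not called. In capitals are the repeat letters, and for Rarb, whose window lies inside the gene in GENCODE M21, only the match with 5 bases on either side is shown.
Cyp26a1 (chr19:37697558-37697797, plus strand): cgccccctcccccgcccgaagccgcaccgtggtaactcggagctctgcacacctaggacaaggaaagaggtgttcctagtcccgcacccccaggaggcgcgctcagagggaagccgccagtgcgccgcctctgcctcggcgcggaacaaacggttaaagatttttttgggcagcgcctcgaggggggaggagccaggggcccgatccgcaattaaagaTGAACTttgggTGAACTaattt
Rarb (chr14:16575508-16575534, minus strand): ggaagGGTTCAccgaaAGTTCActcgc
Cyp26a1 was above its highest tercile in PDGFRA+ cells, and Rarb below its lowest.

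Several genes that respond to FGF and BMP signals were lower in PDGFRA+ cells. Of 19 genes of FGF signalling and ERK feedback, 8 were tested, 3 were lower and 0 higher (median -2.07). Dusp6, the phosphatase that ERK induces against itself, was at 48.9, 59.99 and 68.3 CPM in T1, T2 and T3 with 1 UMI in PDGFRA+, an 80.4-fold (95% counting interval 14.3 to 3189) difference (adjusted p = 0.00466). The receptor Fgfr1 had 3 UMIs, an 11.6-fold (95% counting interval 3.84 to 57.1) difference, and the feedback inhibitor Spred1 was at 17.9, 23.8 and 23.8 against 4.41 CPM. Not all members went this way: Spry2 and Fgf10 lay above the terciles (5.44, 10.6 and 9.21 against 16.9 CPM and 0, 0.882 and 0 against 10.3 CPM) without passing the test. Below the filter, Fgfr3, Fgfr4 and Fgf3 were highest in PDGFRA+, with at most 10 UMIs, while Spry4 and Egr1, among others, were lowest there. Of 16 genes of BMP signalling and Id, 12 were tested, 4 were lower and 0 higher (median -1.78). The Id genes, direct BMP targets, accounted for 3: Id1 was at 50.5, 59.99 and 60.6 against 5.15 CPM, Id2 at 201, 359 and 470.5 against 41.2 CPM and Id3 as above. Msx1 had 0 UMIs in PDGFRA+ and 59 over the terciles, 7.19-fold lower at a floor of 3 UMIs. Below the filter, Msx2 was highest in PDGFRA+, with 9 UMIs, and Bmp7 and Smad6 were lowest there. The BMP receptors Bmpr1a (21.8, 23.8 and 23 against 11.8 CPM) and Bmpr2 (10.9, 11.5 and 8.44 against 8.82 CPM) were not called, and neither were the ligands Bmp2 (6.22, 5.29 and 2.3 against 13.2 CPM) and Bmp4 (11.7, 17.6 and 5.37 against 0.735 CPM).

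Secreted antagonists split. Of 15 genes of Nodal and Wnt signalling and their antagonists, 9 were tested and 3 were higher: the Wnt antagonist Dkk1 at 22.5, 33.5 and 11.5 CPM in T1, T2 and T3 and at 288 CPM in PDGFRA+ (log2 fold change 3.79 ± 0.41 (SE), adjusted p = 0.00605), Fst, and the matricellular Cyr61 (14.8, 15 and 18.4 against 36 CPM, adjusted p = 0.0421). The other 6 lay below all terciles and none passed the test, among them Sfrp1 (6.99, 14.1 and 13 against 2.21 CPM), Sfrp2 (2.33, 9.7 and 32.2 against 0.735 CPM), and the Nodal co-receptor Tdgf1 (21, 2.65 and 7.68 against 1.47 CPM). Below the filter, Frzb was highest in PDGFRA+, with 9 UMIs, and Axin2 and Lef1, among others, were lowest there. The median of the list was therefore negative (-1.76) although the called genes were all higher.

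Imprinted genes, which are expressed from 1 parental allele and many of which control growth, were called in 1 direction: of 14, 12 were tested, 5 were lower and 0 higher, and 10 lay below all terciles (median -1.96). Of all genes tested, 43.7% lay below all terciles and 2.47% were called lower. Mest was at 256, 369.6 and 409 CPM in T1, T2 and T3 and at 14 CPM in PDGFRA+ (log2 fold change -4.50 ± 0.38 (SE), adjusted p = 0.00466) and Grb10 at 69.1, 77.6 and 69.1 against 11 CPM. Peg10 had 2 UMIs and the CDK inhibitor gene Cdkn1c 1 in PDGFRA+, with differences of 42.2-fold (95% counting interval 11.6 to 351) and 31.1-fold (95% counting interval 5.43 to 1241). Zdbf2 was at 19.4, 19.4 and 19.96 against 4.41 CPM. Igf2 (106, 71.5 and 33 against 22.8 CPM) and Phlda2 (99.4, 37.1 and 22.3 against 3.68 CPM) were highest in T1 and lowest in PDGFRA+ without passing, and Igf2r, at 16.3, 15.9 and 19.2 against 21.3 CPM, was the member above all terciles.

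The genes furthest below the nearest tercile included 2 with no UMI at all in PDGFRA+. Car3, a carbonic anhydrase, had 301 UMIs over the 3 terciles (69.1, 85.6 and 88.3 CPM). At a floor of 3 UMIs in PDGFRA+ it was 36.7-fold lower there (95% counting interval from 29.6 upward). Csn3, kappa-casein, had 228 and was 27.8-fold lower at that floor (95% counting interval from 22.4 upward). Crabp2, Hoxb2, Col18a1, Dusp6, Id3, Peg10, Mest and Crabp1 were among the 15 as well. Others were Arg1, arginase (69.1, 101 and 85.2 CPM and 3 UMIs in PDGFRA+, a 38.2-fold (95% counting interval 13 to 186) difference), Fgfbp1, an FGF carrier (73.8, 52.9 and 33.8 CPM and 1 UMI), the interferon-inducible Ifitm1 (288, 472 and 338 against 14 CPM) and the zinc finger gene Tshz1 (27.2, 30.9 and 28.4 CPM and 1 UMI). Tshz1 was nearly equal in the 3 terciles.

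Pluripotency genes had no common direction. Of 12, 9 were tested, 1 was lower and 0 higher. The lower gene was Sox2, which is also a neural factor, with 19.4, 15 and 43 CPM and 1 UMI in PDGFRA+, a 35.8-fold (95% counting interval 6.28 to 1429) difference (adjusted p = 0.0466). Dppa5a was at 3983, 1627 and 1052 against 6922 CPM, Pou5f1 (OCT4) at 30.3, 4.41 and 11.5 against 47.8 CPM and Klf4 at 6.22, 4.41 and 1.54 against 17.6 CPM, above all terciles but not called. Nanog, at 423, 275 and 175 against 93.3 CPM, lay below them. Dppa5a alone made up most of the list's summed level of 4643, 1983 and 1314 CPM in T1, T2 and T3 and 7169 CPM in PDGFRA+. In both mESC libraries it was at 10994 and 15850.4 CPM. The list's median of 0.04 changed sign with the setting, from -0.37 without T3 to 1.88 without T1. Post-implantation epiblast genes were mostly too low to test: of 7, 2 were tested, Dnmt3a was lower (28.7, 21.2 and 31.5 against 6.62 CPM, adjusted p = 0.0413) and Dnmt3b was not called.

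Few cell cycle genes passed the test. Of 15 S phase genes 1 was lower, Mcm6 (93.2, 115 and 107 against 46.3 CPM), and 0 higher (median -0.33). Below all terciles lay 11 of the 15, against 43.7% of all genes tested. Of 15 mitosis genes 1 was higher, Birc5, survivin (279, 290.2 and 292 against 498 CPM), and 0 lower, with a median of -0.04. Among G1 cyclins and CDK inhibitors, Cdkn1c and Myc (17.9, 22.1 and 25.3 against 4.41 CPM) were lower and Mycn (14.8, 19.4 and 24.6 against 48.5 CPM) higher. The cyclin genes Ccnd1 (20.2, 52.9 and 82.1 against 2.21 CPM) and Ccnd2 (35, 129.7 and 469.7 against 28.7 CPM) also differed between terciles and did not pass. In the list of stress and RNA quality, 1 of 7 tested genes was lower, the nuclear RNA Malat1 (4004, 4906 and 5624 against 1735 CPM, log2 fold change -1.37 ± 0.18 (SE), adjusted p = 0.00827). Ribosomal protein genes took 26.9%, 29.5% and 29.5% of the UMIs in T1, T2 and T3 and 28.3% in PDGFRA+.

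Markers of other cell types that the gates could hold were at or near the floor in part. Of 12 mesoderm markers, 5 had 0 UMIs in all 4 libraries, and the list summed to between 18.6 and 51.2 CPM in the terciles and to 3.68 CPM in PDGFRA+. Meox1 was lower, with 10.9, 34.4 and 26.9 CPM and 1 UMI in PDGFRA+. Neural crest markers summed to between 31.1 and 162 CPM and to 10.3 CPM, with the defining Sox10 and Foxd3 at 0 UMIs in all 4. In the terciles most of that sum was Ednrb, at 20.2, 59.1 and 134 against 0.735 CPM. Trophoblast markers summed to between 22.3 and 63.7 CPM in the terciles and to 48.5 CPM in PDGFRA+, with Elf5 at 0 UMIs throughout and Plac1 at 31.1, 6.18 and 3.07 against 41.2 CPM. Blood and endothelial markers summed to between 6.91 and 14.1 CPM and to 20.6 CPM. Of 8 definitive endoderm markers, 4 were tested and 2 were higher, Sox17, which primitive endoderm shares, and the carboxypeptidase gene Cpm (14, 18.5 and 15.4 against 47 CPM), while Gsc was at 0 UMIs in all 4 libraries and Foxa2 was not called. The part of these cells in the differences above was not tested.

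T1 was the PDGFRA- tercile nearest to PDGFRA+ for most called genes. Among the 490 genes higher in PDGFRA+, T1 was the highest tercile for 265 (54.1%). This compares with 41.8% of the 2303 genes above the terciles and 33.5% of all genes tested. Of the 490, 186 (38.0%) were ordered T1 over T2 over T3 against 48 (9.8%) in the reverse order. The corresponding shares were 26.1% and 16.3% of those 2303 genes and 21% and 24.1% of all genes tested. Among the 201 lower genes, T1 was the lowest tercile for 125 (62.2%). This compares with 45.2% of the 3552 genes below the terciles and 40.8% of all genes. Of the 201, 73 (36.3%) were ordered T1 under T2 under T3 against 25 (12.4%) in reverse. Those shares were 27.3% and 19.7% of the 3552 genes. Among the higher genes, Pdgfra, Srgn, Dab2 and Lamb1 were ordered T1 over T2 over T3, whereas Gata4 and Dkk1 were highest in T2. These shares come from the libraries on which the calls rest, and a gene passes the test more easily when the terciles lie close together, so that they are a description. With the tercile as a linear term in the fit, 2184 genes were called, all 691 among them. That fit takes the CD24 order of the terciles out of the spread and sets PDGFRA+ against the level fitted for T2. It leaves fewer residual degrees of freedom and does not adjust for the CD24- state of the PDGFRA+ cells.

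At 96 h the study sorted cells again, into 2 libraries of XEN-like (PDGFRA+/CD24-) and 2 of ectoderm-like (PDGFRA-/CD24+) cells that share no library with the comparison at 72 h. The ectoderm-like libraries were unequal: their XEN markers summed to 485 and 1779 CPM, against 12050 and 6665 CPM in the XEN-like libraries, so that values are also given without ectoderm-like replicate 2. At 96 h, 1135 of 8945 genes differed (12.7%), 624 higher (6.98%) and 511 lower (5.71%) in XEN-like cells. Of the 490 genes higher at 72 h, 366 were called higher at 96 h, which is 74.7% of the former and 58.7% of the latter list. Of the 201 lower genes, 129 were called lower, 64.2% and 25.2% of the respective lists. No gene was called in opposite directions. All 489 higher and 187 lower genes that could be tested at 96 h had the same sign there. So had 79.1% of the 7824 genes tested at both times, which include small differences. With 1 library of 96 h left out the agreement was not always complete. Without ectoderm-like replicate 1 it held for 489 of 490 higher and 182 of 187 lower genes, and without XEN-like replicate 1 for 489 of 489 and 198 of 201. The median log2 fold changes were 1.61 at 72 h and 1.52 at 96 h for the higher, and -2.40 and -1.96 for the lower genes. Without ectoderm-like replicate 2 the shared genes numbered 294 higher and 94 lower. They numbered 102 and 61 without ectoderm-like replicate 1, 220 and 68 without XEN-like replicate 1, and 214 and 84 without XEN-like replicate 2.

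**Figure D5:**
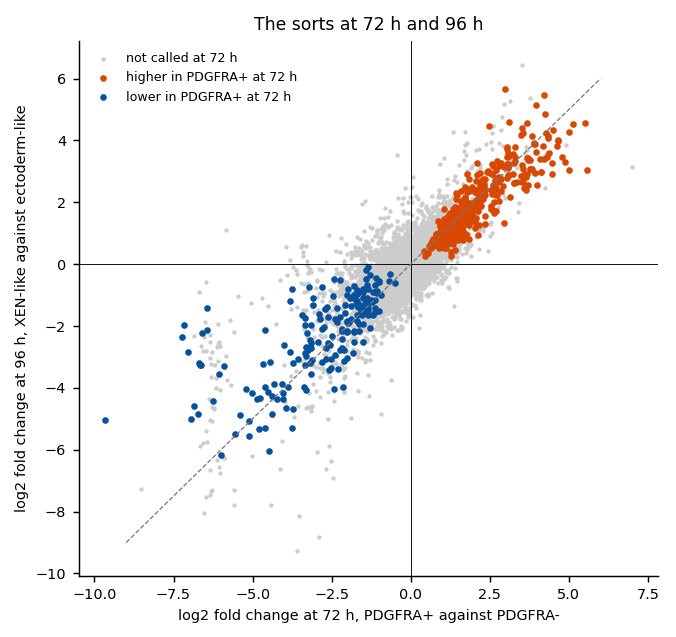
Log2 fold change of PDGFRA+ against PDGFRA- cells at 72 h (x axis) and of XEN-like against ectoderm-like cells at 96 h (y axis) for the 7824 genes tested at both times, with a dashed line where they are equal. Genes called higher at 72 h (orange) lie above 0 and genes called lower (blue) below 0 at 96 h in every case.

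A test of the difference between the 2 sorts, in a fit of 10 libraries, called 0 of 9630 genes (0.0% with edgeR, adjusted p under 0.05). An unadjusted p under 0.05 was found for 175 genes, fewer than that threshold would pass if no gene differed. The genes named below are therefore examples only. A p that misses the threshold does not show that the sorts are alike. Col4a1 stood at 39.6, 23.8 and 24.6 and 98.5 CPM at 72 h and at 61.7 and 158 CPM in ectoderm-like and 1208 and 236 CPM in XEN-like cells at 96 h, and Sparc at 5454 and 3414 CPM in XEN-like cells against 1329 CPM in PDGFRA+. Ectoderm-like cells had 494 and 273 CPM of Dppa5a and XEN-like cells 5948 and 4352 CPM, with an unadjusted p of 0.0174 for the difference from 72 h. Mdk was at 1054 and 534 CPM in ectoderm-like and 429 and 166 CPM in XEN-like cells, where it was less reduced than in PDGFRA+ (unadjusted p = 0.0118). None of these passed the adjustment. All 11 tested ectoderm markers were called lower at 96 h, among them the 6 that missed the threshold at 72 h. They include Cd24a, whose protein defined the gates at 96 h too. Of the 19 ER machinery genes, 16 were called higher there.

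The called genes were also set beside the 2 libraries of undifferentiated mESCs. For 458 of the 490 genes that were higher (93.5%), PDGFRA+ was also above both mESC libraries, against 78.4% of all 2303 genes with PDGFRA+ above the terciles and 44.6% of all genes tested. All 3 PDGFRA- libraries were above both mESC libraries as well for 202 of the 490 (41.2%). This compares with 32.7% of those 2303 genes and 26.4% of all genes tested. PDGFRA+ but none of the 3 PDGFRA- libraries was above both for 147 of the 490, against 449 of those 2303 genes (19.5%). Dab2 is among the 202, at 3.06 and 1.31 CPM in mESCs and 138, 55.6 and 35.3 CPM in the terciles. Fabp3 is not: mESCs had 300.1 and 1255 CPM of it, on either side of the 669.6 CPM in PDGFRA+. Of the 201 genes that were lower, 119 (59.2%) had all 3 PDGFRA- libraries above both mESC libraries while PDGFRA+ was not above both, against 25.5% of all 3552 genes with PDGFRA+ below the terciles. Crabp2, at 19.7 and 15.7 CPM in mESCs and 16.9 CPM in PDGFRA+, is an example. Hoxb2 is not, since its 8.09 CPM in PDGFRA+ were above the 1.31 and 2.61 CPM in mESCs. For 142 of the 201 (70.6%), PDGFRA+ was below both mESC libraries, against 56.6% of those 3552. Genes chosen for a high or low value in PDGFRA+ tend to lie beyond other libraries too, so that these shares are a description. Ifitm1 was among these, at 237 and 472 CPM in mESCs. No test was run on these counts.

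The library of the whole culture at 72 h was made without sorting. In it, 565 of the 691 called genes (81.8%) lay between the mean of the PDGFRA- libraries and PDGFRA+. Genes of 1 library are no independent draws, so this share is given without an interval. The median position was 22.6% of the way from PDGFRA- to PDGFRA+. The share was 90.6% for higher and 60.2% for lower genes, against 60.5% of all genes with PDGFRA+ above the terciles, 41.8% of those with PDGFRA+ below them and 39.9% of all genes tested. Genes with an extreme value in PDGFRA+ leave more room for another library to lie between. Srgn, at 294 CPM, and Pdgfra, at 25.6 CPM, lay between both, while Sparc, at 1736 CPM, was above even PDGFRA+. Of the 126 genes outside, 12 lay beyond PDGFRA+ and 114 beyond PDGFRA-. The culture and the PDGFRA+ side are 1 library each, and the labels do not say whether they came from the same dish.

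Single cells of the same time point gave a separate reading of Pdgfra. On the SCRB-seq plate of 72 h, 235 of 384 wells held over 2000 UMIs, 21 of them with at least 1 Pdgfra UMI (35 in all) and 214 with none. The 21 wells were deeper, with a median of 8157 UMIs against 3649, and the part of depth in this split was not tested. The paper reports that the method recovers only a small part of the transcripts of a cell. A well without a Pdgfra UMI can therefore hold a cell that expresses the gene. The split is thus not one of PDGFRA+ and PDGFRA- cells. Per 10000 UMIs, the other 10 XEN markers summed to 37.1 (exact Poisson 95% interval 34.9 to 39.4) in wells with a Pdgfra UMI and to 19.4 (18.5 to 20.3) in wells without. Sparc was at 11.6 and 5.06, Lama1 at 5.45 and 2.84, and Srgn at 0.694 and 0.323 per 10000. ER machinery genes were at 55.9 and 41.5. Not all genes higher in the bulk sort had a higher value in these wells: Gata4 was at 0.0694 and 0.167, Cited1 at 0.277 and 0.294, and the list of endoderm transcription factors at 5.24 (4.44 to 6.14) and 4.61 (4.2 to 5.04). Lists with few calls in the bulk sort also had higher values in wells with a Pdgfra UMI, S phase genes with 28.1 and 22, G1 cyclins and CDK inhibitors with 14.6 and 11.7 and the stress list with 68.2 and 56.0, so that the value of the ER list is not particular to it. Of the genes lower in the bulk sort, Dusp6 was at 0.382 and 0.794, Id3 at 2.39 and 2.25, and Hoxb2 at 1.18 and 1.28. The ectoderm list was at 38.0 (35.8 to 40.3) and 33.8 (32.7 to 35.0), higher in wells with a Pdgfra UMI. In that list Cd24a, the gene of the other sorted protein, was at 3.85 (3.17 to 4.64) and 2.68 (2.38 to 3.02). Prtg was at 11.8 and 8.88, whereas Mdk, Hoxb2 and Sox1 were lower in wells with a Pdgfra UMI. The wells come from 1 culture, the intervals cover counting error only, and no test over cells was run. Among wells with over 4000 UMIs, 13 with a Pdgfra UMI held 33.6 (31.4 to 35.8) UMIs of the XEN markers per 10000 and 91 without held 18.8 (17.7 to 19.8), at median depths of 16222 and 5819 UMIs.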

How the data were processed

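Sorted cells were profiled by 3′ UMI RNA-seq. The authors mapped reads to RefSeq mRNAs of the mouse (mm10) with bwa 0.7.4 and collapsed reads by UMI. The deposited values are UMI counts with no normalization. Of 23481 listed genes, 23475 were used: 2 with text in place of a count and 2 with repeated names (4 entries) were left out. CPM were computed from library totals. Tests used edgeR 4.0.16 in R 4.3.3 (TMM factors, filterByExpr with its default settings, quasi-likelihood, Benjamini-Hochberg), on the 4 libraries of 72 h, on XEN-like, ectoderm-like and mESC libraries for 96 h, and on all 10 for the difference; DESeq2 1.42.0 was an alternative. Genes were named if they belonged to 29 lists or were among the 15 called genes per direction with the largest log2(CPM + 1) ratio to the nearest tercile and at least 20 UMIs in PDGFRA+ (higher) or in each tercile (lower); some of these genes are not reported here. The members and lists were chosen with earlier results of these data known. Folds against 0 UMIs, and the bounds used in medians of lists, take a floor of 3 UMIs and are not limits of a 95% interval. Intervals of ratios are exact and conditional on the sum of the counts, at 95%. Motifs were searched in RefSeq promoter windows. Gene positions are those of GENCODE M21 (GRCm38), which holds 348 of 354 names looked up. In simulated data for the 72 h comparison (8131 genes), 18%, 62%, 80% and 86% of 50 genes each were recovered at 2-, 4-, 8- and 16-fold, and 5 unchanged genes were called; the corresponding values for 96 h (8945 genes) were 12%, 74%, 90% and 88%, with 1 unchanged gene called. In the simulated 72 h data each gene had the same mean in all PDGFRA- libraries and the same spread in all 4. They thus hold no ordered CD24 gradient and take the equal spread of the PDGFRA+ library as given. SMART-seq2 values and the other libraries were not used here.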

Additional observations from a re-analysis of the deposited data

How the results depend on the processing

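The 691 genes called at 72 h became 1168 without the filter on low counts, 427 with DESeq2 and 2184 with the CD24 tercile as a linear term, and between 0 and 2066 when 1 tercile was left out. The linear term sets PDGFRA+ against the level fitted for T2 and does not adjust for the CD24- state of the PDGFRA+ cells. Library totals gave 690, the fit of 10 libraries 651, and a minimum of 2-fold 629. Of the 691 calls, library totals kept 614, DESeq2 354 of the 628 with an adjusted p, and the fit of 10 libraries 537. No called gene changed sign under any of these. The 5855 genes outside the range (72.0% of 8131) became 2372 (29.2%) at a margin of 1.5-fold and 2622 of 3386 (77.4%) among genes with at least 50 UMIs, and between 6438 and 6788 without 1 tercile. On TMM-scaled CPM the share of those above went from 39.3% to 46.5%.

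The 1135 calls at 96 h became 717 with DESeq2 and between 262 and 657 without 1 library. With the replicate number as a block the count was 2610. The labels do not say whether libraries with the same number share a culture. Deviations of XEN-like and ectoderm-like replicate 1 from their group means correlated at 0.323 over 8945 genes, which is a hint of pairing from the data, with 2 pairs only. The genes shared with 72 h, an alternative chosen after seeing the data, were between 102 and 294 (higher) and between 61 and 94 (lower) without 1 library of 96 h. The test between sorts called 28 genes without the filter and 0 under its other settings. The unsorted library lay between for 77.7% of genes on TMM-scaled CPM, and SCRB-seq wells above 4000 UMIs with a Pdgfra UMI gave 33.6 XEN marker UMIs per 10000. In the simulated data, which treat the terciles as repeats, genes that differed 2-fold were mostly not recovered with 2 residual degrees of freedom and 1 PDGFRA+ library.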

Other observations

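Further gene families, looked up after the values were seen and therefore given as a description with no test of the family, extend the account of secretion. All 10 oligosaccharyltransferase subunits, which attach sugars to proteins in the ER, were above the 3 terciles in PDGFRA+, and 8 were called higher (median log2 fold change 1.13). For this and the families below, 28.3% of all genes tested lay above the terciles and 6.03% were called higher. Of 12 tested targets of the unfolded protein response, 8 were higher, and 11 lay above the terciles. Xbp1, the factor that this response activates by splicing, was at 51.3, 41.5 and 28.4 CPM in T1, T2 and T3 against 159 CPM in PDGFRA+ (log2 fold change 2.08 ± 0.32 (SE), adjusted p = 0.0132), Herpud1 at 6.99, 4.41 and 6.91 against 20.6 CPM and Dnajc3 at 44.3, 26.5 and 29.2 against 140.4 CPM. Atf4, Atf6, Sdf2l1 and Sel1l were not called. Of 8 tested p24 cargo receptors 5 were higher, among them Tmed3 (46.6, 42.3 and 46.1 against 94.8 CPM), and of 9 COPI coat subunits 3 were higher and 1 lower: Copg1 was at 90.1, 86.5 and 96.7 against 182 CPM and its paralogue Copg2 at 132, 157 and 189 against 32.3 CPM. Of 17 tested subunits of the vacuolar proton pump, which acidifies lysosomes, 7 were higher and 16 lay above the terciles.

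Most actin-related genes tested were higher as well: of 25 tested actin-related genes 15 passed and 21 lay above the terciles (median 0.80), with Actb at 3353, 3180.2 and 3349 against 4929 CPM and Tmsb10 at 2088, 2242 and 2189 against 3516 CPM. Among all genes tested, 6.03% were called higher and 28.3% lay above the terciles, while 2.47% were called lower and 43.7% lay below. On the lower side, all 14 tested of 39 Hox genes lay below the terciles and 5 were called, Hoxa5, Hoxb1, Hoxb2, Hoxb4 and Hoxb6. The family summed to 703, 741 and 897 UMIs in T1, T2 and T3 and to 54 in PDGFRA+. The homeobox genes Meis1 and Meis2 were lower too. Ifitm1, Ifitm2 and Ifitm3, the 3 tested interferon-inducible transmembrane genes, were all lower (Ifitm3 at 197, 274 and 259 against 57.3 CPM), and the chromatin proteins Hmga1, Hmga2 and Hmgb2 were lower while Hmgb1 and Hmgb3 were not called. The peroxiredoxins Prdx1 (5369.9, 5775 and 5649.7 against 3283 CPM) and Prdx6 (537, 557 and 579 against 323 CPM) were lower, and the other 4 were not called.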
